A study of Mus musculus with 16 samples.

Results

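Transcripts of 8 genes of hepatic fatty acid handling were followed in mouse liver: the nuclear receptor gene Ppara and 7 genes that its protein, PPAR alpha, is known to regulate (Cpt1a, Cyp4a10, Cyp4a14, Acot1, Fgf21, Pdk4 and Ehhadh). They were taken by gene name from the non-control spots of each array, which gave 12 probes on 30 spots, and they are 8 of the 18507 genes tested. Total RNA of livers from male C57BL/6 mice, 3 months old, had been labelled with Cy3 and hybridised to 16 Agilent arrays of the whole mouse genome. The groups, of 4 arrays each, were GR knockout given dexamethasone, GR knockout without treatment, wild type given dexamethasone and wild type without treatment. GR stands for the glucocorticoid receptor (gene Nr3c1), which the protocol describes as knocked out in liver, and dexamethasone is a synthetic hormone that activates it. Knockout titles carry the term PBS, and the protocol names a vehicle where the source names give no treatment. Neither the dose, route and time of dexamethasone nor the Cre driver or the deleted exons are stated in the sources used here. Nothing in the labels states that replicates were separate animals, so p-values measure the spread between these samples, which may be technical.

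PPAR alpha binds DNA as a partner of the retinoid X receptor and is switched on by fatty acids, above all in fasting. In hepatocytes it drives the genes that carry fatty acids into mitochondria and peroxisomes, oxidise them and turn them into ketone bodies, and it induces the hormone Fgf21. Glucocorticoids are also raised in fasting, and several genes of this programme, Pdk4 among them, are known to respond to both receptors.

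Levels are log2 processed signals relative to the 75th percentile of each array, so that 0 is the 75th percentile. All 12 probes were well above background and unsaturated on all 16 arrays, and no member lacked a value on any array. The 75th percentile lay between 523.9 and 691.1 on 14 arrays, while it was 309 on untreated knockout array 1 and 400 on untreated wild-type array 4. Each group had its own slide and scan, so effects of slide and of group cannot be told apart. Nr3c1 was lower in knockout livers by the fit in limma, with differences of -1.96 under dexamethasone and -1.99 without it (SE 0.14 each, 3.9-fold and 3.96-fold, adjusted p = 6.32e-06 and 1.71e-05), and whether its probe lies in the deleted part is unknown. The glucocorticoid target Fkbp5 was higher with dexamethasone in knockout livers (2.42, SE 0.61, adjusted p = 0.0426) and in wild-type livers (3.1, SE 0.61, adjusted p = 0.00506), but in knockout the call was lost in 13 of 16 refits that left out 1 array. Between genotypes Fkbp5 was lower in knockout, with differences of -3.94 with dexamethasone and -3.25 without it, as were Tsc22d3 (-2.02 and -1.74) and Per1 (-1.79 and -1.90). Neither Tsc22d3 nor Per1 was called for dexamethasone, at 0.48 and 0.50 in knockout (adjusted p = 0.458 and 0.284) and 0.76 and 0.39 in wild type (adjusted p = 0.111 and 0.304). Sgk1 (1.53) and Tat (1.06) were higher with dexamethasone in wild type.

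Of the 8 genes, 6 had a promoter in RefSeq's table for GRCm38.p6. The 250 bases before the start are shown for Fgf21 and Acot1, the target genes whose levels differed between genotypes under dexamethasone, and for Cpt1a, the member whose window held the half-site of PPAR alpha and its partner. Capitals mark the motif found. They are TATAAA in Fgf21 (28 to 23 bases before the start), the half-site of the glucocorticoid receptor AGAACA on the opposite strand in Acot1 (171 to 166 bases before it), and AGGTCA on the opposite strand in Cpt1a (94 to 89 bases before it).
Fgf21 promoter, chr7:45615491-45615740, strand minus, 5′ to 3′: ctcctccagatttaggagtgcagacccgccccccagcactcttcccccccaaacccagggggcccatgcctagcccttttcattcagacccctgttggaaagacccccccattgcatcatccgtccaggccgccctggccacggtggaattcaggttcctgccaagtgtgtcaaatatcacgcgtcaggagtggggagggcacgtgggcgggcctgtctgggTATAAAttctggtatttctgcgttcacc
Acot1 promoter, chr12:84009252-84009501, strand plus, 5′ to 3′: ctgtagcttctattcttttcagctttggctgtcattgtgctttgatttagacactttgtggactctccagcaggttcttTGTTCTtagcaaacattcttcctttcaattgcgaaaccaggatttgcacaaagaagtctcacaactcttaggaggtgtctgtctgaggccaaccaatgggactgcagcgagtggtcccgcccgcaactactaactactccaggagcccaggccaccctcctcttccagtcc
Cpt1a promoter, chr19:3323051-3323300, strand plus, 5′ to 3′: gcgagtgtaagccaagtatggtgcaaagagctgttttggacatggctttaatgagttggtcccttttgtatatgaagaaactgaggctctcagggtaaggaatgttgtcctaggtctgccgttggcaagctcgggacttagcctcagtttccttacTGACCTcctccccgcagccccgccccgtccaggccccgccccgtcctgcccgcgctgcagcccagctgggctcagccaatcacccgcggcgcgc
On both strands, AGGTCA was found in 14% of the 32851 RefSeq promoter windows of 250 bases, AGAACA in 16.1% and TATAAA in 12.4%. The direct repeat AGGTCANAGGTCA, the full element of PPAR alpha and its partner, was in 0.0335% of windows, and the glucocorticoid palindrome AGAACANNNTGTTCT in 0.00913%. Neither of the full elements was in any of the 6 windows, which describes only these letters in this stretch. The windows of Ppara, Pdk4 and Ehhadh held none of the 5 motifs.

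The probes that measured Fgf21 and Cyp4a10 a further time are shown because the results of both genes rest on more than 1 probe; positions are on mm7, as deposited, and no base is in capitals.
Fgf21 probe A_51_P315925, chr7:41790404-41791018, strand minus, 5′ to 3′: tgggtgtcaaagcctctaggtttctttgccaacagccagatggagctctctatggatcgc
Cyp4a10 probe A_52_P340136, chr4:114901988-114902047, strand plus, 5′ to 3′: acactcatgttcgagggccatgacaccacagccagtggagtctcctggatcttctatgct
Cyp4a10 probe A_52_P6588, chr4:114901279-114901760, strand plus, 5′ to 3′: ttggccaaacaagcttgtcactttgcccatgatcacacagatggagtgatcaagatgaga
The Fgf21 probe and Cyp4a10 probe A_52_P6588 are 60 bases long and span 615 and 482 bases of genome, so each crosses at least 1 intron.

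Ppara was lower in treated than in untreated wild-type livers, and it was the member whose call held in every setting tried for that comparison apart from a floor of 2-fold. Ppara (probe A_51_P348334, chromosome 15, mm7) lay at 4.05, 3.45, 4.18 and 4.52 in treated wild-type livers, against 5.0, 5.12, 4.64 and 4.98 in untreated wild-type livers. All 4 treated arrays lay below all 4 untreated arrays. The difference was -0.88 (SE 0.20, 1.85-fold, n = 4 per group, adjusted p = 0.0096), and it ranged from -1.04 to -0.68 with 1 array left out at a time. In knockout livers Ppara lay at 4.83, 4.74, 4.50 and 4.46 with dexamethasone, against 5.11, 4.92, 4.89 and 5.29 without it. Here too the groups did not overlap, but the difference of -0.42 (SE 0.20) did not pass the threshold (limma, adjusted p = 0.29). The responses of knockout and wild-type livers differed by 0.46 (95% interval -0.13 to 1.05, adjusted p = 0.464), so a weaker response in knockout was not shown.

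Treated knockout livers averaged 4.63 ± 0.18 for Ppara and treated wild-type livers 4.05 ± 0.45 (SD, n = 4 each). This difference of 0.58 (SE 0.20, 1.5-fold) passed narrowly (adjusted p = 0.0449), with wild-type array 4 at 4.52 inside the knockout range of 4.46 to 4.83. The call was lost in 12 of the 16 refits that left out 1 array, and the difference was 0.38 without wild-type array 2 (adjusted p = 0.133). Without dexamethasone, knockout and wild-type livers averaged 5.05 ± 0.19 and 4.93 ± 0.20, a difference of 0.12 (95% interval -0.30 to 0.54). The order of group means, low to high, was treated wild type, treated knockout, untreated wild type and untreated knockout. The last pair in that order did not differ beyond its spread, and the middle pair was 0.30 apart.

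**Figure D1:**
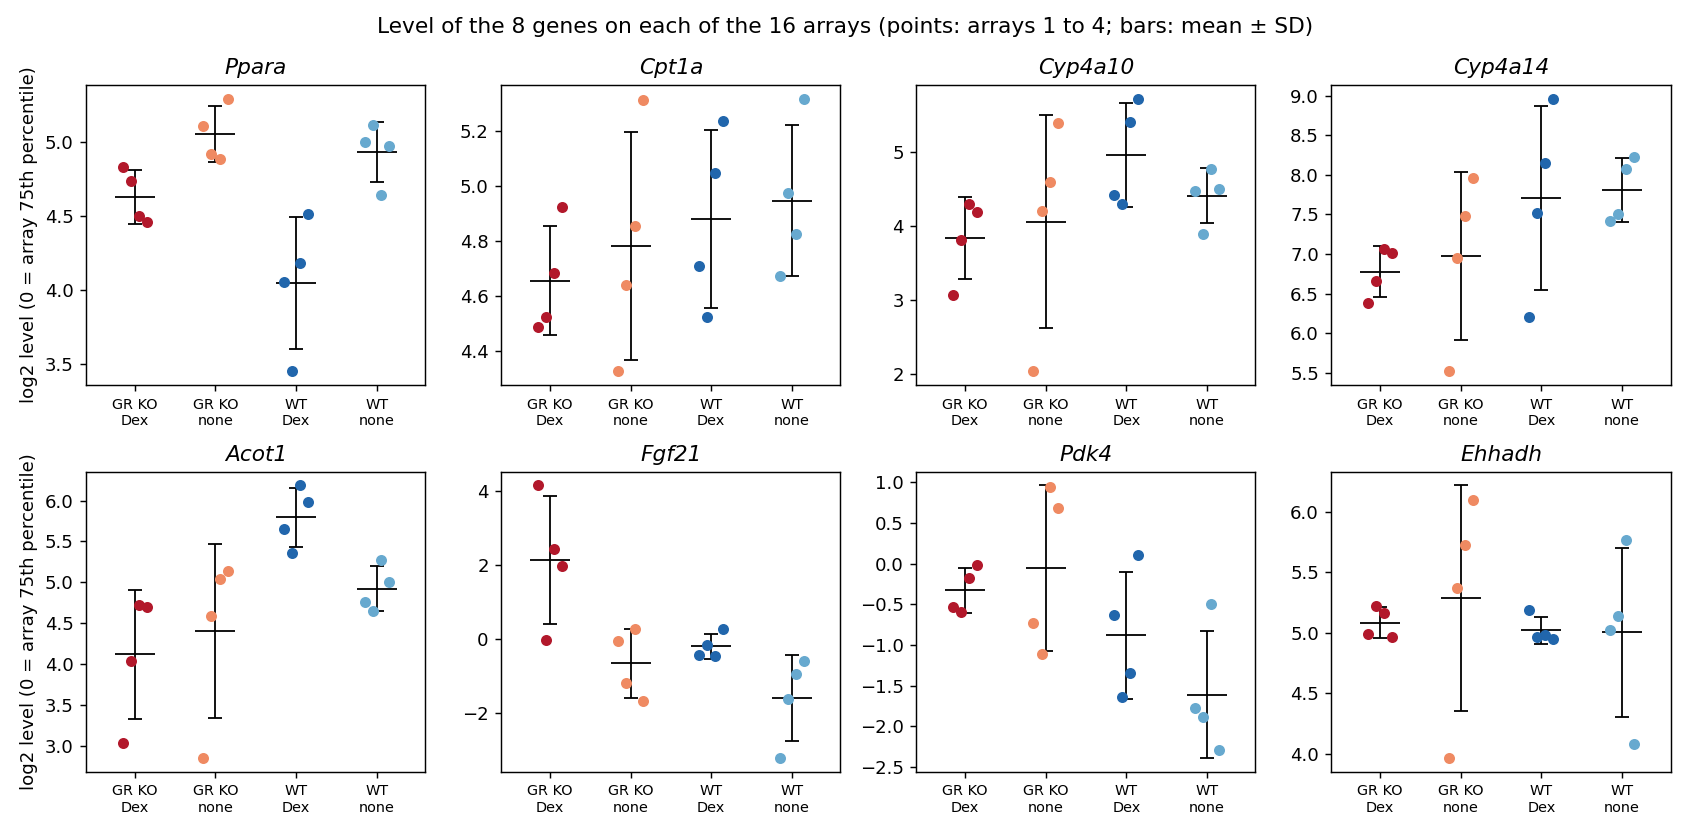
Level of each of the 8 genes on each array (y axis, log2 signal with 0 at the array's 75th percentile; each panel has its own axis) in treated knockout, untreated knockout, treated wild-type and untreated wild-type livers (x axis), with points for arrays 1 to 4 from left to right and bars for mean ± SD. Ppara was lowest in treated wild-type livers (3.45 to 4.52), Acot1 highest there (5.36 to 6.19), and Fgf21 spread from -0.03 to 4.15 in treated knockout livers.

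For dexamethasone in wild-type livers, 12.0% of all genes were called, 5.11% as higher and 6.88% as lower, and 1 of the 8 genes, Ppara. For 3 of the 8 the treated and untreated arrays did not overlap (Ppara, Acot1 and Fgf21), against 22.1% of genes. The median difference of the 8 genes was 0.28, against -0.04 over all genes. In knockout livers 3.63% of all genes were called for dexamethasone (1.19% higher, 2.44% lower) and 0 of the 8 (limma), with 2 of the 8 at an unadjusted p under 0.05 (Ppara and Fgf21). The knockout arrays with and without dexamethasone did not overlap for 1 of the 8, Ppara, and for 9.75% of genes. For the difference between the responses, 4.63% of all genes were called (1.94% higher, 2.69% lower) and 0 of the 8, with 0 of the 8 at an unadjusted p under 0.05 (limma). Without dexamethasone, knockout against wild type called 2.82% of genes (2.06% higher, 0.751% lower) and 0 of the 8 by limma, with 1 at an unadjusted p under 0.05, Pdk4. The groups did not overlap for 0 of the 8, against 11.6% of genes. With dexamethasone it called 22.4% of genes and 3 of the 8: Fgf21 and Ppara as higher and Acot1 as lower. These 5 comparisons share arrays, so their results are not independent of each other.

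Cpt1a codes for the enzyme that commits long-chain fatty acids to mitochondrial oxidation. Its levels were 4.49, 4.52, 4.68 and 4.92 in treated knockout livers, against 4.33, 4.64, 4.85 and 5.31 in untreated knockout livers. In wild type they were 4.71, 4.52, 5.05 and 5.24 with dexamethasone, against 4.67, 4.97, 4.82 and 5.32 without it. The groups overlapped in every comparison, and the 16 arrays together spanned 0.99 (1.99-fold), the narrowest range of the 8 genes. The dexamethasone difference was -0.13 in knockout (95% interval -0.59 to 0.33) and -0.07 in wild type (-0.53 to 0.39). The genotype difference was -0.22 with dexamethasone (-0.69 to 0.24) and -0.16 without it (-0.63 to 0.30). A dimmer probe, A_52_P219753 (chromosome 19), gave -0.66 for knockout against wild type without dexamethasone (limma, adjusted p = 0.133 over 26794 probes), which also missed the threshold.

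Cyp4a10 and Cyp4a14 are fatty acid hydroxylases that start oxidation from the omega end, and they are among the most strongly PPAR alpha-driven genes of mouse liver. Cyp4a10 lay at 3.07, 3.81, 4.29 and 4.19 in treated knockout livers, against 4.41, 4.30, 5.40 and 5.73 in treated wild-type livers. All 4 knockout arrays were below all 4 wild-type arrays, narrowly for the closest pair, but the difference of -1.12 (SE 0.56) was not called (adjusted p = 0.171). Cyp4a10 was at 2.03, 4.21, 4.60 and 5.39 in untreated knockout livers, against 4.48, 3.89, 4.78 and 4.51 in untreated wild-type livers. Untreated knockout array 1 was the lowest of all 16 and array 4 of the same group was among the highest, so that group alone covered most of the range. The dexamethasone difference was -0.22 in knockout (95% interval -1.42 to 0.98) and 0.55 in wild type (-0.65 to 1.75). The other Cyp4a10 probes, A_52_P6588 and A_52_P340136, gave -1.35 and -0.60 for treated knockout against treated wild type (adjusted p = 0.119 and 0.204). Cyp4a10 and its relative Cyp4a31 are close copies, so the signal of Cyp4a10 alone is uncertain. How far the Cyp4a14 probe shares transcripts of other Cyp4a genes was not tested.

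Cyp4a14 lay at 6.38, 6.66, 7.06 and 7.01 in treated knockout livers, against 6.21, 7.51, 8.15 and 8.96 in treated wild-type livers. Treated wild-type array 1 was the lowest of these 8 arrays, and the other 3 lay above every knockout array. The difference was -0.93 (SE 0.53, adjusted p = 0.234). Without treatment Cyp4a14 lay at 5.52, 6.95, 7.48 and 7.97 in knockout livers, against 7.42, 7.51, 8.07 and 8.22 in wild-type livers, and these groups overlapped. That difference was -0.83 (95% interval -1.97 to 0.31). Dexamethasone differences were -0.20 in knockout (-1.34 to 0.94) and -0.10 in wild type (-1.24 to 1.04).

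Acot1 was lower in treated knockout than in treated wild-type livers. It codes for a cytosolic enzyme that splits fatty acyl-CoA into free fatty acid and coenzyme A. Acot1 (probe A_51_P451574, chromosome 12, mm7) lay at 3.04, 4.03, 4.72 and 4.70 in treated knockout livers, against 5.65, 5.36, 6.19 and 5.98 in treated wild-type livers. No knockout array reached any wild-type array. The difference was -1.67 (SE 0.46, 3.18-fold, n = 4 per group, adjusted p = 0.0173), and such a lack of overlap was seen for 2 of the 8 genes (Acot1 and Cyp4a10) and for 31.7% of all genes. Without treated knockout array 1, the lowest of its group, the difference was -1.31 and the call was lost (adjusted p = 0.0548).

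Untreated livers held Acot1 at 2.85, 4.59, 5.04 and 5.14 in knockout, against 4.75, 4.65, 5.27 and 5.01 in wild type. These groups overlapped, and the difference was -0.52 (95% interval -1.49 to 0.46). All 4 treated wild-type arrays were above all 4 untreated wild-type arrays, but the difference of 0.87 (SE 0.46) missed the threshold (adjusted p = 0.241). It was called with array weights (0.96, adjusted p = 0.0283) and in a fit of those 8 arrays alone (adjusted p = 0.0281). These settings also called more of all genes, 5049 and 2755 against 2218. In knockout the dexamethasone difference was -0.28 (95% interval -1.25 to 0.69). The difference between the responses, -1.15 (SE 0.64), was not called (adjusted p = 0.416), but without untreated knockout array 1 it was -1.67 and was called (adjusted p = 0.046). That refit also called more of all genes for this comparison, 1485 against 856.

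Ehhadh codes for the peroxisomal enzyme that carries out the middle steps of beta-oxidation. Its levels were 4.99, 5.22, 5.17 and 4.97 in treated knockout livers, against 5.19, 4.97, 4.98 and 4.95 in treated wild-type livers. All 8 treated arrays lay between 4.95 and 5.22. Untreated knockout livers gave 3.96, 5.37, 5.73 and 6.10, against 5.03, 5.14, 5.77 and 4.08 in untreated wild-type livers, and each untreated group had 1 array near 4. Those were untreated knockout array 1 and untreated wild-type array 4, the arrays with the lowest 75th percentile. No difference was called: it was 0.07 between genotypes with dexamethasone (95% interval -0.76 to 0.89) and 0.29 without it (-0.54 to 1.11). For dexamethasone it was -0.20 in knockout (-1.03 to 0.62) and 0.02 in wild type (-0.81 to 0.84).

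Fgf21 was higher in treated knockout than in treated wild-type livers. It is a hormone that the liver secretes in fasting and that acts on fat tissue and brain. Fgf21 (probe A_52_P235347, chromosome 7, mm7) lay at 4.15, -0.03, 2.43 and 1.95 in treated knockout livers, against -0.45, -0.18, -0.46 and 0.26 in treated wild-type livers. Knockout arrays 1, 3 and 4 lay above every wild-type array, and knockout array 2 lay among them. The difference was 2.33 (SE 0.74, 5.03-fold, n = 4 per group, adjusted p = 0.0355). The call was lost in 7 of 16 refits that left out 1 array, and without treated knockout array 1 the difference was 1.66 (adjusted p = 0.106).

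Untreated livers had Fgf21 at -0.05, -1.19, 0.27 and -1.69 in knockout, against -3.23, -1.62, -0.96 and -0.60 in wild type. The 2 untreated groups overlapped (0.93, 95% interval -0.65 to 2.51). Treated knockout arrays averaged 2.13 ± 1.72 and untreated knockout arrays -0.67 ± 0.93 (SD, n = 4 each), a difference of 2.79 (SE 0.74, 6.92-fold) just outside the threshold (adjusted p = 0.0514). Treated knockout array 2 was the 1 treated array inside the untreated range, and without it the difference was 3.51 and was called (adjusted p = 0.0164). In wild type all treated arrays lay above all untreated arrays, at a difference of 1.39 (SE 0.74) that was not called (adjusted p = 0.25). The responses differed by 1.40 (95% interval -0.84 to 3.63, adjusted p = 0.602).

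The further Fgf21 probe, A_51_P315925, lay at 3.14, -1.34, 1.31 and 1.01 in treated knockout livers, against -1.86, -2.42, -0.98 and -2.89 in untreated knockout livers. In wild type it lay at -1.70, -1.56, -0.97 and -1.02 with dexamethasone, against -4.06, -2.78, -2.06 and -1.59 without it. Array 1 was highest and array 2 lowest of the treated knockout livers on both probes. With each probe tested as its own feature, its dexamethasone difference in knockout was 3.07 (SE 0.74) and was called (adjusted p = 0.0407), and its genotype difference under dexamethasone was 2.34 (adjusted p = 0.0375).

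Pdk4 codes for a kinase that switches off pyruvate dehydrogenase and so spares glucose while fat is burnt. Its levels were -0.73, -1.11, 0.94 and 0.69 in untreated knockout livers, against -1.77, -1.88, -0.49 and -2.29 in untreated wild-type livers. Untreated wild-type array 3 lay above knockout arrays 1 and 2, so the groups overlapped. The difference of 1.55 (SE 0.49, 2.94-fold) did not pass over all genes (limma, adjusted p = 0.102). Pdk4 was at -0.54, -0.59, -0.18 and -0.01 in treated knockout livers, against -0.64, -1.64, -1.34 and 0.10 in treated wild-type livers, a difference of 0.55 (95% interval -0.51 to 1.61). For dexamethasone the difference was -0.27 in knockout (-1.33 to 0.78) and 0.73 in wild type (-0.33 to 1.79).

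**Figure D2:**
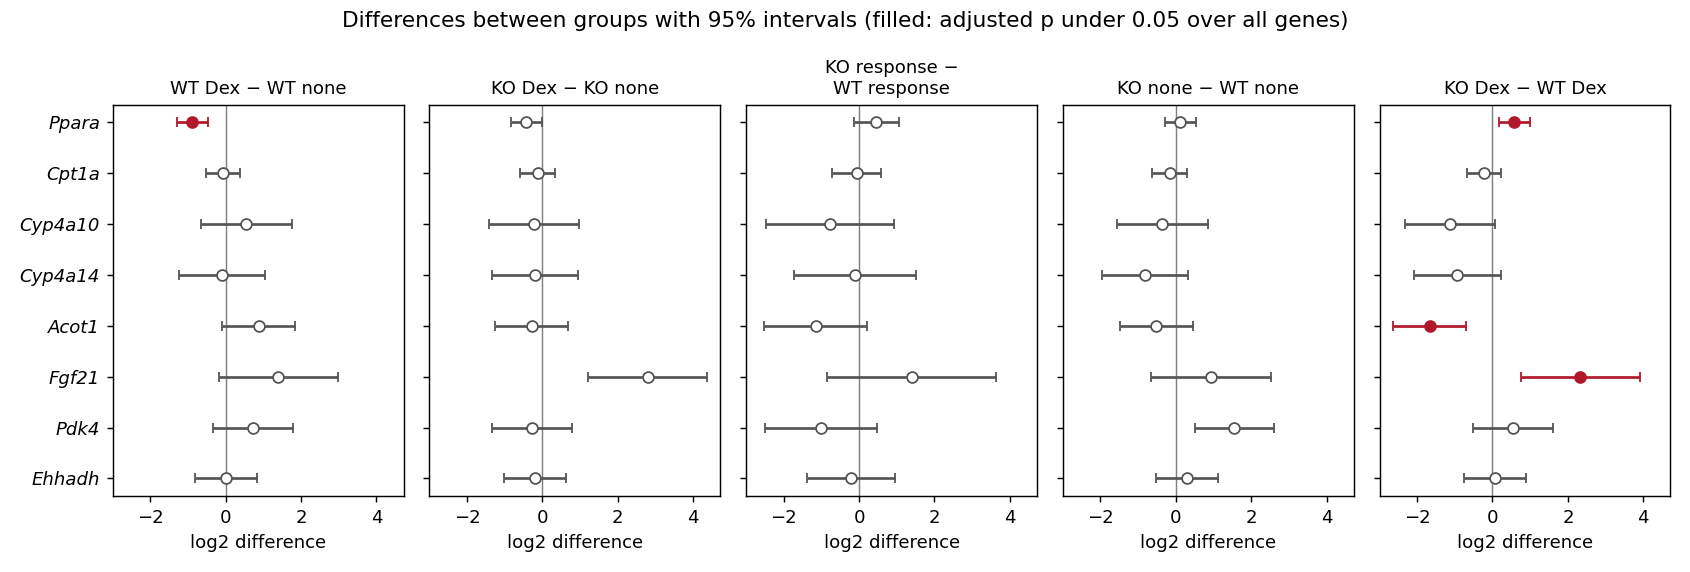
Differences between groups (x axis, log2) for the 8 genes (y axis) in the 5 comparisons, one panel each, with 95% intervals from the fit; filled points have an adjusted p under 0.05 over all genes. Ppara was called for dexamethasone in wild type (-0.88), and Ppara (0.58), Acot1 (-1.67) and Fgf21 (2.33) for knockout against wild type under dexamethasone.

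The order of group means differed between the genes. Cpt1a and Cyp4a14 ran, low to high, from treated knockout through untreated knockout and treated wild type to untreated wild type. Cyp4a10 and Acot1 had the same lower pair, with treated wild type on top. For Acot1 that top group was called against treated knockout, and for Cyp4a10 it was not. Pdk4 and Ehhadh ran from untreated wild type through treated wild type and treated knockout to untreated knockout. Fgf21 was lowest in untreated wild type, followed by untreated knockout and treated wild type, with treated knockout 2.33 above the last. Over the 16 arrays Fgf21 spanned 7.37 on the log2 scale (166-fold), Cyp4a10 3.69 and Ppara 1.84.

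Within the groups, several targets had their extremes on the same arrays. Untreated knockout array 1 was the lowest of its group for 5 of the 8 genes (Cpt1a, Cyp4a10, Cyp4a14, Acot1 and Ehhadh), and array 4 was the highest for 6. Over all genes, untreated knockout array 1 also had the lowest mean correlation with its group (0.963, against 0.975 or more for the other arrays). Its 75th percentile, 309, was the lowest as well. In treated wild-type livers array 2 was the lowest for 5 and array 4 the highest for 6. Treated knockout array 1 was lowest for Cpt1a, Cyp4a10, Cyp4a14 and Acot1, while it was highest for Fgf21 and Ppara. Array number was also the place on the slide, so a fit with replicate number as a block took in this place too. For treated knockout against treated wild type, that block moved the adjusted p (limma) from 0.0173 to 0.00305 for Acot1. It moved from 0.234 to 0.0454 for Cyp4a14 and from 0.0449 to 0.0527 for Ppara. Whether the place caused the shared extremes was not tested.

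**Figure D3:**
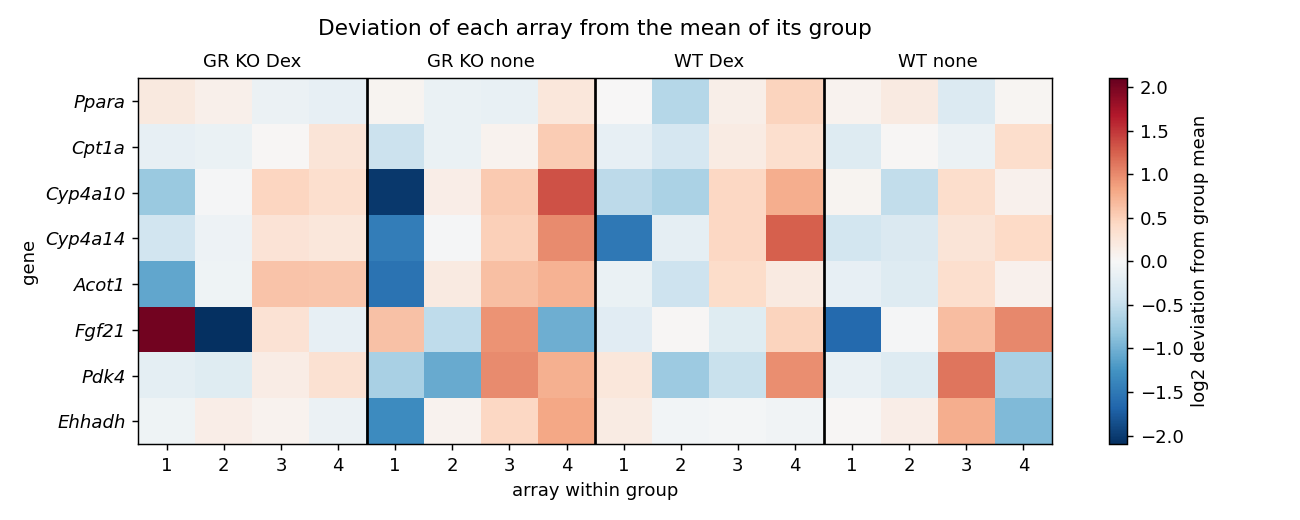
Deviation of each array from the mean of its group (colour, log2) for the 8 genes (rows) on arrays 1 to 4 of each group (columns). Cyp4a10, Cyp4a14, Acot1 and Ehhadh were low together on untreated knockout array 1, and Fgf21 was high on treated knockout array 1 and low on array 2.

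The genes nearest in pattern to each member were found by the mean absolute difference of log2 levels over the 16 arrays, each gene centred on its own mean, among 18483 genes with a value on every array. This is a description, since the arrays share groups and slides. The nearest to Cyp4a10 were its relative Cyp4a31 (0.25) and Acot1 (0.28), against a mean deviation of Cyp4a10 itself of 0.59. The deposited annotation of the Cyp4a31 probe also lists a Cyp4a10 transcript, so these signals cannot be told apart. For Acot1 the nearest was Cyp4a10, followed by Lonrf3 (0.28) and the chaperone gene Dnaja1 (0.29). Cyp4a14 was nearest to Cyp2c54 (0.35), the vitamin E transfer protein gene Ttpa (0.36) and Cyp4a31 (0.36). Ehhadh was nearest to Tmem135 (0.19), Adhfe1 (0.20) and Dynlt3 (0.20), and Ppara to Marchf8 (0.15), Tenm3 (0.16) and 5031439G07Rik (0.16). Dpyd (0.12), Gchfr (0.13) and Fuca1 (0.13) lay closest to Cpt1a. The likeness was looser for Fgf21, with Sdcbp2 (0.75), Psat1 (0.78) and Fabp4 (0.85), and for Pdk4, with Fam89a (0.41), Klk1b26 (0.42) and Ctsk (0.45).

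Other genes of the same pathways were called mostly between genotypes under dexamethasone, which was also the comparison with most calls over all genes. There 22.4% of all genes were called, 14.2% as higher and 8.20% as lower. For dexamethasone the share was 12.0% in wild type and 3.63% in knockout. It was 4.63% for the difference between responses and 2.82% between genotypes without dexamethasone. Of 16 receptors and coregulators of the PPAR system, 2 were higher in treated knockout than in treated wild-type livers (Rxrg 1.08 and Pparg 0.72) and 5 were lower. The lower ones included Lpin1, a phosphatidate phosphatase that also coactivates PPAR alpha (-3.86, SE 0.39, 14.6-fold), and the coactivator Ppargc1a (-1.38, SE 0.31). Hnf4a (-1.14) and Med1 (-0.63) were lower as well. The fifth, Ppard, was called as lower (limma, adjusted p = 0.00408), but normexp background correction gave 0.11 (limma, adjusted p = 0.805). It was well above background on 3 of 4 treated wild-type arrays and on 0 of 4 treated knockout arrays, so its size and direction are uncertain. Lpin1 was also lower in knockout livers without dexamethasone (-3.38, SE 0.39) and higher with dexamethasone in wild type (1.68, SE 0.39).

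Of 13 genes for fatty acid activation and the carnitine shuttle, 3 were higher in treated knockout than in treated wild-type livers and 0 lower by limma. They were the acyl-CoA synthetase Acsl3 (2.16, SE 0.34), Acaca, whose product makes the malonyl-CoA that inhibits Cpt1a (1.10, SE 0.37), and the peroxisomal carnitine transferase Crot (0.97, SE 0.23). In wild type 1 of the 13 was lower with dexamethasone, Acsl3 (-1.25, SE 0.34), against 6.88% of all genes. Mitochondrial beta-oxidation, with 19 genes, had 0 higher and 1 lower, the enoyl-CoA isomerase Eci2 (-0.85, SE 0.16). For dexamethasone 0 of 19 were called in either genotype by limma, against 12.0% of all genes in wild type and 3.63% in knockout. With so few genes, these counts do not show that the list responded less than other genes. The median difference of these 19 genes was -0.06 between genotypes under dexamethasone, against 0.09 over all genes.

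Peroxisomal oxidation, with 16 genes, had 3 higher in treated knockout than in treated wild-type livers and 2 lower. Abcd2, which imports very long-chain fatty acids into peroxisomes, was higher by 3.38 (SE 0.58), with 4 of 4 knockout arrays and 2 of 4 wild-type arrays well above background, and by 1.75 with normexp background correction. Acaa1b, a thiolase of the peroxisomal cycle that Ehhadh serves, was also among the higher ones (0.91, SE 0.21), and the lower ones were Acox2 (-0.87) and Phyh (-0.43). Of 12 genes of omega-oxidation other than the members, 2 were higher (the dehydrogenases Adh4, 1.02, and Aldh3a2, 0.75) and 0 lower. Adh4 was lower with dexamethasone in wild type (-1.17, SE 0.18).

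Among 11 further acyl-CoA thioesterases, 4 were higher in treated knockout than in treated wild-type livers and 1 lower. Acot3, which lies beside Acot1 on chromosome 12, had the largest difference of these (5.17, SE 1.15, adjusted p = 0.00561). It lay at -1.61, 0.10, 0.46 and 0.50 in treated knockout livers, against -7.25, -6.74, -5.51 and -1.75 in treated wild-type livers, of which 1 of 4 was well above background. The difference was 2.54 with normexp background correction. Acot4 (1.53, SE 0.49), Acot13 (0.62) and Acot9 (0.59) were also higher and Acot12 lower (-0.89, SE 0.17). Acot1 was thus lower under the comparison in which Acot3 and Acot4 of the same gene cluster were higher. Acot1 and Acot3 are close copies, and how far their probes share transcripts was not tested.

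Of 6 genes of ketone body metabolism, Bdh1 was higher (0.58) and Oxct1 lower (-1.24, SE 0.27) in treated knockout than in treated wild-type livers. Oxct1, an enzyme of ketone use that healthy hepatocytes hardly express, was higher with dexamethasone in wild type (1.49, SE 0.27). Of 8 genes that set pyruvate dehydrogenase activity other than Pdk4, 0 were higher and 3 lower: Pdhx (-1.10, SE 0.23), Pdk2 (-0.59) and Pdha1 (-0.34). In the Fgf21 pathway, with 10 genes, 4 were higher and 1 lower. The higher ones were Mlxipl, which codes for the sugar-sensing inducer of Fgf21 (0.91, SE 0.26), and the receptors Fgfr1 (0.75), Fgfr4 (0.68) and Fgfr2 (0.60), and the lower one was Rora (-0.72). Mlxipl (-1.02), Fgfr2 (-1.39) and Fgfr4 (-0.91) were all lower with dexamethasone in wild type. Fgfr1 is uncertain, since the mean over its probes gave -0.25.

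In knockout, Ppard was called as lower with dexamethasone (limma, adjusted p = 0.0121), but its difference was -0.03 with normexp (limma, adjusted p = 0.979). Fgfr1 was called as higher (0.68, SE 0.15). As the mean over its probes Fgfr1 gave 0.0079, and its call was lost in 4 of 13 other settings and 4 of 16 refits that left out 1 array. In wild type, Hnf4a (0.58), Amacr (1.05), Acox2 (0.60), Acot12 (0.57) and Pdhx (0.98) were higher with dexamethasone, and Ncor1 (-0.45) and Acot13 (-0.55) were lower. Between genotypes without dexamethasone, Lpin1 and the omega-hydroxylase gene Cyp4f13 (-0.68, SE 0.13) were lower in knockout. The responses differed for Adh4 (0.97), Fgfr1 (0.83, but -0.27 as the mean over its probes) and Fgfr4 (0.99). Ppard was also called there, but it was not well above background on any treated knockout or untreated wild-type array, and with normexp its difference was -0.20 (adjusted p = 0.912). With 1 array left out, the wild-type calls of Ncor1, Acot12 and Hnf4a were lost in 15, 11 and 8 of 16 refits, that of Acsl3 in 6, of Acox2 in 5, of Amacr and Mlxipl in 4 each, of Acot13 in 3 and of Pdhx in 1, and the calls of Adh4 and Fgfr1 for the difference between responses in 12 of 16 each. Between genotypes under dexamethasone, Acaca and Rora lost theirs in 10 of 16, Aldh3a2 and Acot4 in 6, Pdk2 and Pdha1 in 5 and Mlxipl in 4. Genes beyond the 3 with the largest change in a list were named here after their values were seen. Lost calls were not counted for Rxrg, Pparg, Med1, Phyh, Acot9, Acot13, Fgfr2 or Fgfr4 between genotypes under dexamethasone.

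**Figure D4:**
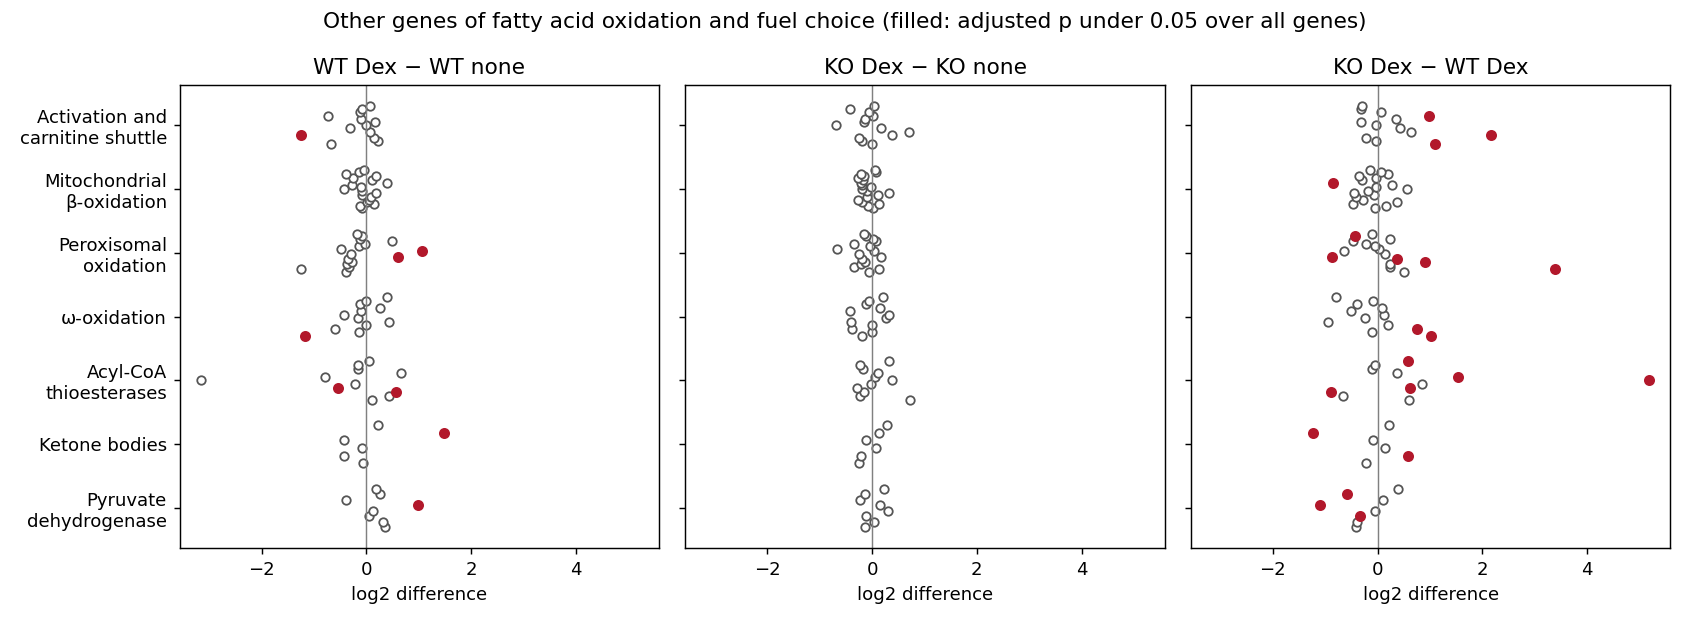
Differences (x axis, log2) of single genes in 7 lists of fatty acid oxidation and fuel choice (y axis), leaving out the 8 members, for dexamethasone in wild type, dexamethasone in knockout and knockout against wild type under dexamethasone; each point is 1 gene, and filled points have an adjusted p under 0.05 over all genes. No gene of these lists was called for dexamethasone in knockout, against 3.63% of all genes. Acot3 (5.17) and Abcd2 (3.38) lay furthest to the right between genotypes.

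Hepatocyte markers, with 7 of 8 tested and Alb, Apob and Ttr above background on every array, summed to 1665 to 1964 times the 75th percentile in treated knockout livers, against 2224 to 2538 in treated wild-type livers. The untreated groups overlapped, at 1814 to 2522 in knockout and 1873 to 2883 in wild type. Adipocyte markers, with 6 of 8 tested, summed to 45.8 to 314 in treated knockout livers, 139 to 195 in untreated knockout livers, 25.9 to 57.8 in treated wild-type livers and 12.1 to 23.8 in untreated wild-type livers. Adipoq and Lep, which define fat cells, were not among the genes tested, and Plin1 was above background on 4 of 4 arrays of each knockout group, against 2 of 4 treated and 1 of 4 untreated wild-type arrays. Cfd, which weighs on these sums, was higher in knockout by 4.34 with dexamethasone and 5.93 without it (SE 0.88 each, 20.2-fold and 60.9-fold), while Plin4 was lower in treated knockout than in treated wild-type livers (-2.05, SE 0.44, 4.15-fold) and higher with dexamethasone in wild type (1.84). Fabp4, both a marker on this list and a gene near Fgf21 in pattern, was higher with dexamethasone in knockout (1.52, SE 0.30) and in wild type (1.25, SE 0.30). Under dexamethasone, where 14.2% of all genes were higher and 8.20% lower, knockout against wild type called 4 of 7 hepatocyte markers as lower (Cps1 at -1.28, Hnf4a at -1.14, Ass1 at -0.83, and Apoa1) and 1 of 6 adipocyte markers as higher and 1 as lower. Without dexamethasone 2 of 7 hepatocyte markers were lower, Cps1 (-0.89) and Apoa1 (-0.88), against 0.751% of all genes. With 1 array left out, this Cps1 call was lost in 10 of 16 refits and that of Apoa1 in 1. With dexamethasone, knockout against wild type called 0 of 7 Kupffer, 0 of 7 sinusoidal endothelial, 0 of 7 stellate, 0 of 3 neutrophil and 0 of 3 muscle markers (limma). It called 1 of 5 cholangiocyte and 1 of 4 T or NK cell markers as lower and 1 of 4 B cell markers as higher. The B cell call, Cd79a, was lost in 11 of 16 refits that left out 1 array, and the cholangiocyte call, Krt7, in 3. Cd79a was well above background on 2 of 4 treated wild-type arrays. For dexamethasone, 1 of 7 endothelial markers was higher in each genotype, Lyve1 (2.58 in knockout, 2.41 in wild type). Another 1 was lower, Kdr (-1.03 and -1.13), and 5 were not called. The knockout call of Kdr was lost in 4 of 16 refits that left out 1 array. Of 4 B cell markers 2 were lower in each genotype, Cd79b (-2.12 and -1.75) among them. Over all genes 1.19% were higher and 2.44% lower in knockout, and 5.11% and 6.88% in wild type. The part of these markers in the results for the 8 genes was not tested. In bulk RNA, fewer cells of a type and less RNA per cell cannot be told apart.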

How the data were processed

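Mouse liver RNA in 16 samples of 4 groups was measured on 1-colour Agilent arrays. Each deposited scanner file holds a processed signal, a mean signal and a local background per spot, all as an intensity; the submitters' processing notes name Feature Extraction 9.5. The authors deposited spot flags, here of unit other, for background, saturation and outliers. Their series table differed from the processed signal by at most 0, so no scaling between arrays had been applied.

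Control spots (1639 of 45018) were dropped and outlier spots (0.306%) set to missing. Log2 signals were set relative to the 75th percentile of their array. A probe was kept if well above background on at least 3 of 4 arrays in any group (26794 probes), and the brightest probe stood for its gene. Symbols were updated through accession, symbol or synonym for 22951, 6659 and 3109 probes, and 8455 kept the deposited name. Limma 3.58.1 (R 4.3.3) fitted 4 group means with 12 residual degrees of freedom. Genes were called at a two-sided adjusted p under 0.05 (Benjamini-Hochberg, all genes of that comparison). The fit was checked on simulated data. The number of arrays limits the precision.

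The members and gene lists were chosen with earlier results of these data known. All members were named, Nr3c1, Fkbp5, Tsc22d3 and Per1 whatever their values, and of each pathway list up to 3 called genes with the largest change in a comparison; marker genes and further called genes were named after their values were seen, where a count needed them. Not all called genes of the lists are reported here. Alternatives covered background correction (normexp, offset 50), quantile scaling, scaling over bright probes, the dim-probe filter (absent or stricter), outlier spots, the choice of probe, the variance model, array weights, a replicate block, the deposited table, fits of single comparisons, a floor of 2-fold and each array left out. Leaving out the dimmest arrays together and testing each probe alone were added after seeing the data. Replicate numbers were not taken to pair samples in the main fit. Residuals of 10 of 24 same-numbered pairs correlated above 0.1 (median 0.0754, range -0.186 to 0.347). Pairs with different numbers were not compared, so these values do not decide whether the numbers pair samples. Plots used matplotlib 3.10.9 (Python 3.11.15).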

Additional observations from a re-analysis of the deposited data

Results flagged for a closer look

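In treated wild-type livers, Ehhadh on array 1 stood apart at 5.19, while the other 3 arrays lay between 4.95 and 4.98. Its gap to the nearest array was 0.866 of the range of the group, above the critical value of Dixon's test for 4 values. Among the 32 groups looked at (8 genes in 4 groups) this was the 1 array to stand apart, and chance alone gives about 1 in 20. In the untreated groups Ehhadh spread more widely, from 3.96 to 6.10 in knockout and from 4.08 to 5.77 in wild type.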

How the results depend on the processing

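The 8 genes kept the direction of every called difference in all settings, and Ppara was called for dexamethasone in wild type in all of them but a floor of 2-fold, which called 0 of the 8. For that comparison, 2 (Acot1 and Ppara) were called with array weights and with only the groups compared, and 1 in each refit without 1 array. Array weights also called more of all genes there, 5049, and only the groups compared 2755, against 2218 of 18507. For dexamethasone in knockout, 1 (Fgf21) was called with quantile normalization, a stricter filter on dim probes, the mean over probes, a trended robust variance or array weights, and 0 to 1 without 1 array (Fgf21 without untreated wild-type array 1 or treated knockout array 2). In that order, the named settings called 1087, 691, 644, 585 and 2127 of all genes, and the named refits 553 and 393, against 671. The interaction called 1 (Acot1) with array weights, and 0 to 1 without 1 array. Array weights called 2984 of all genes for the interaction, against 856. Knockout against wild type without dexamethasone called 0 of the 8 throughout. With dexamethasone it called 1 (Acot1) with no filter on dim probes, and 0 to 4 without 1 array: 0 without treated knockout array 1, and 1 (Acot1) without treated knockout array 3 or 4 or treated wild-type array 1, 2 or 3. Leaving out untreated knockout array 1 and untreated wild-type array 4 together called 4 there (Acot1, Cyp4a10, Fgf21 and Ppara). That refit also called more of all genes, 5989 against 4153. With replicate number as a block the counts were 1, 0, 0, 0 and 3, in the order of comparisons above; under knockout against wild type with dexamethasone the block called Cyp4a14 (adjusted p = 0.0454) in place of Ppara (0.0527), and it changed no other call of the 8. The cause of these changes was not tested.

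Over all genes, counts called moved more. Dexamethasone in wild type called 2218 genes (837 to 5049 over the other settings), dexamethasone in knockout 671 (58 to 2127), the interaction 856 (114 to 2984), and knockout against wild type 521 without dexamethasone (89 to 2165) and 4153 with it (1832 to 6735). Without dexamethasone the split was 382 higher and 139 lower, and 47 and 42 with normexp. Of 66 called results from the other lists that were followed through the settings, 43 held in every refit without 1 array. Some further calls named for knockout against wild type under dexamethasone were not among the 66. They include G0s2, Plin2, Gpd1 and Vnn1, and calls near the threshold by limma: Acot9, Ucp2, Fgfr2 and Slc27a2 (adjusted p = 0.0486, 0.0451, 0.0447 and 0.0418). How far these calls hold was not examined. For knockout against wild type under dexamethasone, Ppard turned to 0.11 with normexp and Fgfr1 to -0.25 with the mean over probes, which also turned the Fgfr1 interaction to -0.27. Among the pathway genes named, signal over background limited Acot3, Abcd2 and Ppard, and none of the 8 genes. Fkbp5 was well above background on 3 of 4 untreated knockout arrays, and its call for dexamethasone in knockout was lost with normexp. The call of Ppara between genotypes under dexamethasone was also lost with normexp (0.45, limma, adjusted p = 0.129).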

Other observations

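Among 37 other known PPAR alpha targets, 10 were higher in treated knockout than in treated wild-type livers and 5 were lower, against 14.2% and 8.20% of all genes. Plin5, a droplet coat protein, lay at 4.68, 4.66, 4.56 and 5.52 in treated knockout livers, against 7.82, 7.00, 7.58 and 7.69 in treated wild-type livers, a difference of -2.67 (SE 0.35, limma, adjusted p = 0.000202). The triglyceride lipase Pnpla2 was lower by 1.5 on the log2 scale (SE 0.20), and its inhibitor G0s2 was higher by 2.15 (SE 0.41), as was the coat protein Plin2 by 1.46 (SE 0.30). Angptl4, an inhibitor of lipoprotein lipase, was lower by 2.06 with dexamethasone and by 1.29 without it (SE 0.22 each). The lysolipid transporter Mfsd2a was lower by 4.32 with dexamethasone (SE 1.05) and by 4.41 without it, and the second call was lost in 10 of 16 refits that left out 1 array. Slc27a2 was lower as well (-0.51), and Acaa1b, Acot3, Acot4, Aldh3a2, Gpd1, Ucp2 and Vnn1 were among those higher. G0s2, Plin2, Angptl4, Slc27a2, Gpd1, Ucp2 and Vnn1 were named here after their values were seen. In wild type, 2 of the 37 were higher with dexamethasone, Plin5 (2.31, SE 0.35) and Pnpla2 (1.05, SE 0.20), and 1 was lower, Apoa5 (-0.75, SE 0.22, a call lost in 5 of 16 refits that left out 1 array), against 5.11% and 6.88% of all genes. In knockout 0 of the 37 were called for dexamethasone by limma, against 3.63% of all genes. The response of Pnpla2 differed between the genotypes by -1.25 (SE 0.28, adjusted p = 0.023). This call was lost in 2 of 12 other settings, normexp background correction and the mean over probes.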
